A study of Homo sapiens with 6 samples.

Results

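Glucocorticoid receptor (GR) peaks were examined around 7 genes of osteoblast biology, RUNX2, ALPL, COL1A1, SPP1, BMP2, DKK1 and TNFRSF11B, in cells derived from U-2OS, a human osteosarcoma line. A peak was counted for a gene when its centre fell in a window of the hg19 build that covers the gene body with about 50 kb at each side. The windows were taken by position and not by any measured value, although the genes were chosen with earlier results of these data known. They run from 45.24 to 45.57 Mb of chromosome 6 for RUNX2, from 21.78 to 21.96 Mb of chromosome 1 for ALPL, and from 48.21 to 48.33 Mb of chromosome 17 for COL1A1. For SPP1 the window is 88.84 to 88.96 Mb of chromosome 4, for BMP2 6.69 to 6.82 Mb of chromosome 20, for DKK1 54.02 to 54.13 Mb of chromosome 10, and for TNFRSF11B 119.88 to 120.02 Mb of chromosome 8. Together they span 1.13 Mb and held 84 of the 116356 peaks in 12 deposited peak lists.

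The peaks came from ChIP-seq with an antibody to GR in a pair of stable lines. The first, labelled GR cell, is hereafter the GR line. The second, labelled MR/GR cell, is hereafter the MR/GR line, in which GR is present together with the mineralocorticoid receptor (MR), a closely related steroid receptor. Each line received either DMSO vehicle or 100 nM dexamethasone, a synthetic glucocorticoid, for 2 hr, and each of the 4 combinations has 3 numbered peak lists. Each receptor combination is represented by 1 line, and whether that line is a single clone is not given in the sources used here. RNA was not measured here, so neither the osteoblast character of the cells nor the expression of the 7 genes was checked.

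Osteoblasts are the cells that build bone. RUNX2 is the transcription factor that commits cells to this lineage, and ALPL, COL1A1 and SPP1 encode products that osteoblasts use to lay down and mineralise matrix. BMP2, DKK1 and TNFRSF11B encode secreted signals that drive bone formation, restrain Wnt signalling and restrain bone resorption, respectively. GR is a ligand-activated transcription factor that enters the nucleus and binds DNA when a glucocorticoid is present. Glucocorticoids are used in culture to help stromal cells mature into osteoblasts, whereas prolonged excess in the body lowers bone formation and causes bone loss.

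The lists give positions only, with no score or height, and their sequencing depth is unknown, so a site without a peak may lie under the calling threshold. After dexamethasone the GR line had 26191 to 37650 peaks per list and the MR/GR line 3713 to 10459, and vehicle lists held 11 to 238. The lists of one combination are treated as replicates (n = 3), although no label ties them to separate cultures. Their spread may thus be technical, and the p-values measure no more than that spread. The MR/GR lists differ in length among themselves, with list 2 the longest and list 1 the shortest, and several results below turn on list 2. In what follows a site is a region merged from overlapping treated peaks of all 6 dexamethasone lists. A line is said to hold a site when at least 2 of its 3 lists have a peak there.

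All 84 window peaks came from dexamethasone lists, 64 from the GR line and 20 from the MR/GR line. None of the 588 vehicle peaks of the GR line or the 183 of the MR/GR line lay in a window. Vehicle peaks are so sparse that windows of this length would receive 0.226 and 0.0703 peaks if peaks followed length alone, so the count of 0 carries little information. The nearest vehicle peaks, both of the GR line, lay 0.120 Mb outside the COL1A1 window and 0.150 Mb outside the ALPL window.

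With every vehicle count at 0, the comparison with dexamethasone comes down to whether each treated list had a peak in the window, and no test is given. In the GR line all 3 treated lists had a peak at all 7 genes. Among 130 kb tiles of the genome with at least 1 treated peak, 74.6% likewise had more peaks in every dexamethasone list of the GR line than in every vehicle list. In the MR/GR line all 3 treated lists had a peak at RUNX2 and ALPL, lists 2 and 3 at DKK1, list 2 alone at TNFRSF11B and COL1A1, and none at SPP1 or BMP2. The corresponding share of tiles in that line was 15.9%. The RUNX2 and ALPL windows, at 330 and 180 kb, are longer than these tiles, and longer windows separate more easily.

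**Figure D1:**
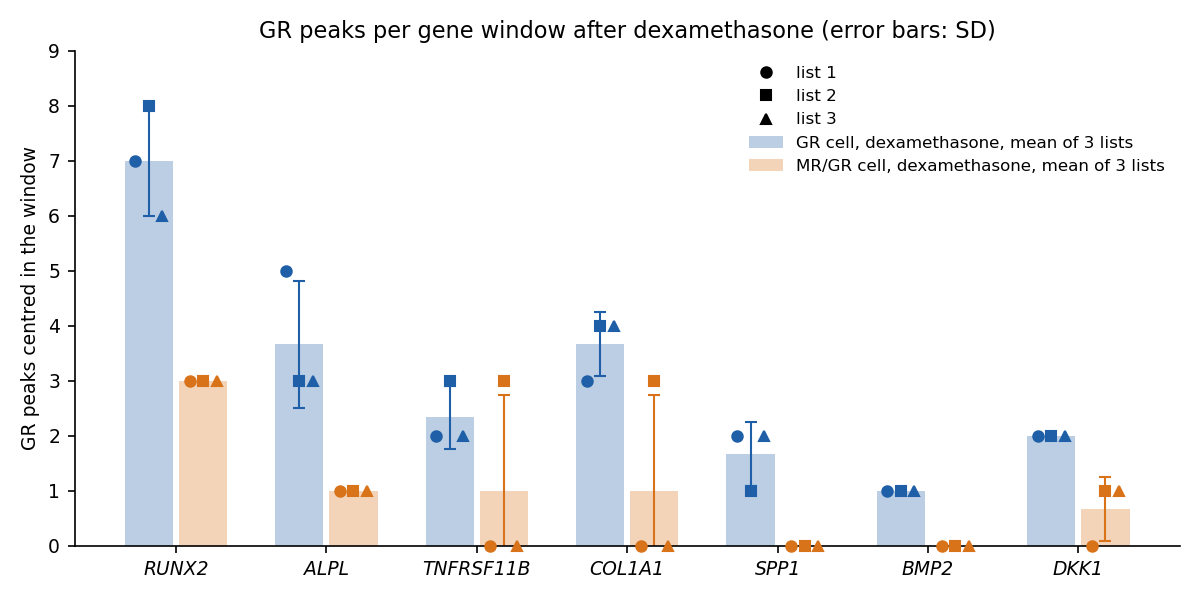
GR peaks centred in each of the 7 gene windows after dexamethasone, counted per list (circle, square and triangle for lists 1 to 3), with bars for the mean of 3 lists and error bars for the SD. RUNX2 had 6 to 8 peaks in GR-line lists and 3 in each MR/GR-line list, whereas TNFRSF11B and COL1A1 had 3 peaks in MR/GR list 2 and none in lists 1 and 3.

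Summed over 3 lists, RUNX2, the lineage transcription factor, had the most peaks of the 7 genes in both lines. Its window was also the longest, 330 kb against 110 to 180 kb for the others. The GR-line lists 1, 2 and 3 held 7, 8 and 6 peaks, and each of the 3 MR/GR-line lists held 3. The lists of the lines did not overlap, and the difference was -0.99 on the log2(peaks + 1) scale (SE 0.10, exact permutation p = 0.1, two-sided). The peaks merged into 10 sites, of which the GR line held 7 and the MR/GR line 3, all of these also held by the GR line.

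The RUNX2 sites differed sharply in how many lists called them. Site 1, at chromosome 6, 45251528 to 45251953, lay in the low-coordinate flank of the window and was called in all 6 treated lists. Its nearest neighbour among treated sites was 97.2 kb away, so this was an isolated site. Sites 2 to 6 formed a group of 5 sites held by the GR line within 22.0 kb. Within it, site 5 (45413456 to 45413940) was called in all 6 lists, and site 3 (45404898 to 45405321) in all 3 GR-line lists and in MR/GR lists 1 and 3. Site 3 was therefore in the shortest MR/GR list and not in the longest.

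The other members of that RUNX2 group were called in the GR line alone. Site 2 (45396463 to 45396947) was in 3 GR-line lists, and sites 4 (45406742 to 45407150) and 6 (45418440 to 45418916) were in GR-line lists 1 and 2. The 2 peak centres of site 6 were 117 bp apart, and a merging rule of at most 100 bp between centres split that site. Site 8 (45500497 to 45500987), farther along the window, was in 3 GR-line lists and no MR/GR-line list. Sites 7, 9 and 10 were each in a single list, which was MR/GR list 2 for site 7. Sites called in both lines and sites without any MR/GR-line peak thus alternated along this locus, and the centres of sites 2 and 3 were 8.40 kb apart.

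ALPL encodes tissue-nonspecific alkaline phosphatase, the enzyme that breaks down pyrophosphate so that mineral can form. Its GR-line lists held 5, 3 and 3 peaks and its MR/GR-line lists 1 each. The lists did not overlap between the lines, with a difference of -1.19 (log2, SE 0.19, exact permutation p = 0.1, two-sided). Site 4, at chromosome 1, 21900599 to 21901028, was called in all 6 treated lists and was the single ALPL site in the MR/GR line. Its neighbour, site 3 (21898914 to 21899341), lay 1.69 kb away, and was in all 3 GR-line lists and in no MR/GR-line list. The same held for site 5 (21919636 to 21920073), in the high-coordinate flank. Sites 1 (21843516 to 21843869) and 2 (21879233 to 21879586) were found in GR-line list 1 alone, the longest list of that line.

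COL1A1 encodes a chain of type I collagen, the main protein of bone matrix. The GR-line lists held 3, 4 and 4 peaks, and the MR/GR-line lists held 0, 3 and 0. Because MR/GR list 2 reached the lowest GR-line value, the lists overlapped, and the difference of -1.55 (log2, SE 0.68) had an exact permutation p of 0.2 (two-sided). The GR line held 4 of the 6 sites, and the MR/GR line held none. Site 5, at chromosome 17, 48287706 to 48288165, was in 3 GR-line lists and MR/GR list 2. Sites 1 (48229175 to 48229693) and 4 (48261922 to 48262477) were in 3 GR-line lists and site 2 (48235281 to 48235704) in GR-line lists 2 and 3, with no MR/GR-line peak at any of them. Site 3 (48255465 to 48255748) and site 6 (48296841 to 48297124) were called in MR/GR list 2 and in no other list.

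SPP1 encodes osteopontin, a phosphoprotein of mineralised matrix that also binds integrins on cells. It had 2, 1 and 2 peaks in the GR-line lists and 0 in each MR/GR-line list, a difference of -1.39 (log2, SE 0.19, exact permutation p = 0.1, two-sided). With no MR/GR-line peak the size of this difference is set by the pseudocount, and it was -2.08 with 0.5 in place of 1. Site 1, at chromosome 4, 88876526 to 88876955, was in 3 GR-line lists, and site 2 (88931934 to 88932367) was in GR-line lists 1 and 3. They lay in opposite flanks of the window, and neither line had a site in its inner part.

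BMP2 encodes a bone morphogenetic protein, a secreted ligand that induces osteoblast differentiation. Its window held 1 site, at chromosome 20, 6699942 to 6700376, in each GR-line list and no MR/GR-line list (exact permutation p = 0.1, two-sided). The site was in the low-coordinate flank, 10.2 kb from the window's edge, and the inner part of the window, about the gene body, carried no peak in any list.

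DKK1 encodes a secreted inhibitor of Wnt signalling, a pathway that promotes bone formation. The GR-line lists held 2 peaks each and the MR/GR-line lists 0, 1 and 1, a difference of -0.92 (log2, SE 0.33, exact permutation p = 0.1, two-sided). Site 1, at chromosome 10, 54078768 to 54079191, was called in 3 GR-line lists and in MR/GR lists 2 and 3. It was the third of the loci, with RUNX2 and ALPL, at which the MR/GR line held a site. Site 2 (54094374 to 54094827), 15.6 kb away, was in 3 GR-line lists and no MR/GR-line list.

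TNFRSF11B encodes osteoprotegerin, a decoy receptor that binds RANKL and so restrains the formation of bone-resorbing osteoclasts. The GR-line lists held 2, 3 and 2 peaks and the MR/GR-line lists 0, 3 and 0. The lists overlapped, and the difference of -1.06 (log2, SE 0.68) had an exact permutation p of 0.4 (two-sided). Sites 1 (chromosome 8, 119909479 to 119909903) and 2 (119920574 to 119920997) were in 3 GR-line lists and MR/GR list 2. Site 3 (119974168 to 119974451) was in MR/GR list 2 alone and site 4 (119986595 to 119986960) in GR-line list 2 alone. Every TNFRSF11B site lay in a flank, the pair in all 3 GR-line lists on the low-coordinate side.

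**Figure D2:**
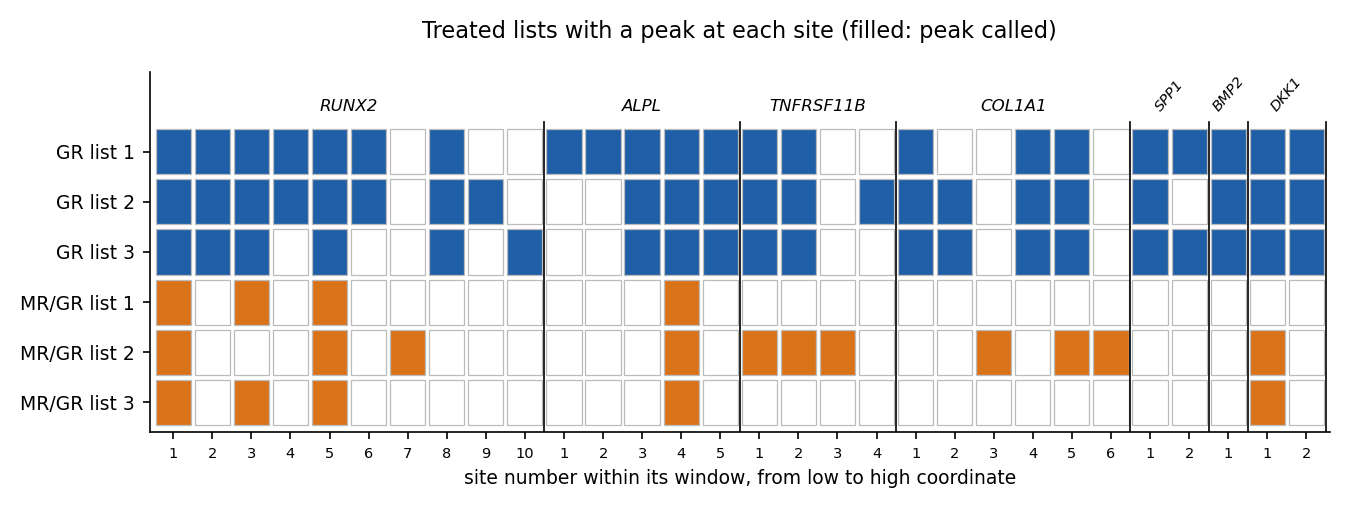
Calls at the 30 sites of the 7 windows (columns, numbered within each window from low to high coordinate) in the 6 dexamethasone lists (rows), where a filled cell stands for a called peak. The 3 columns filled in all 6 rows are RUNX2 sites 1 and 5 and ALPL site 4, and the SPP1 and BMP2 columns are empty in the MR/GR rows.

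**Figure D3:**
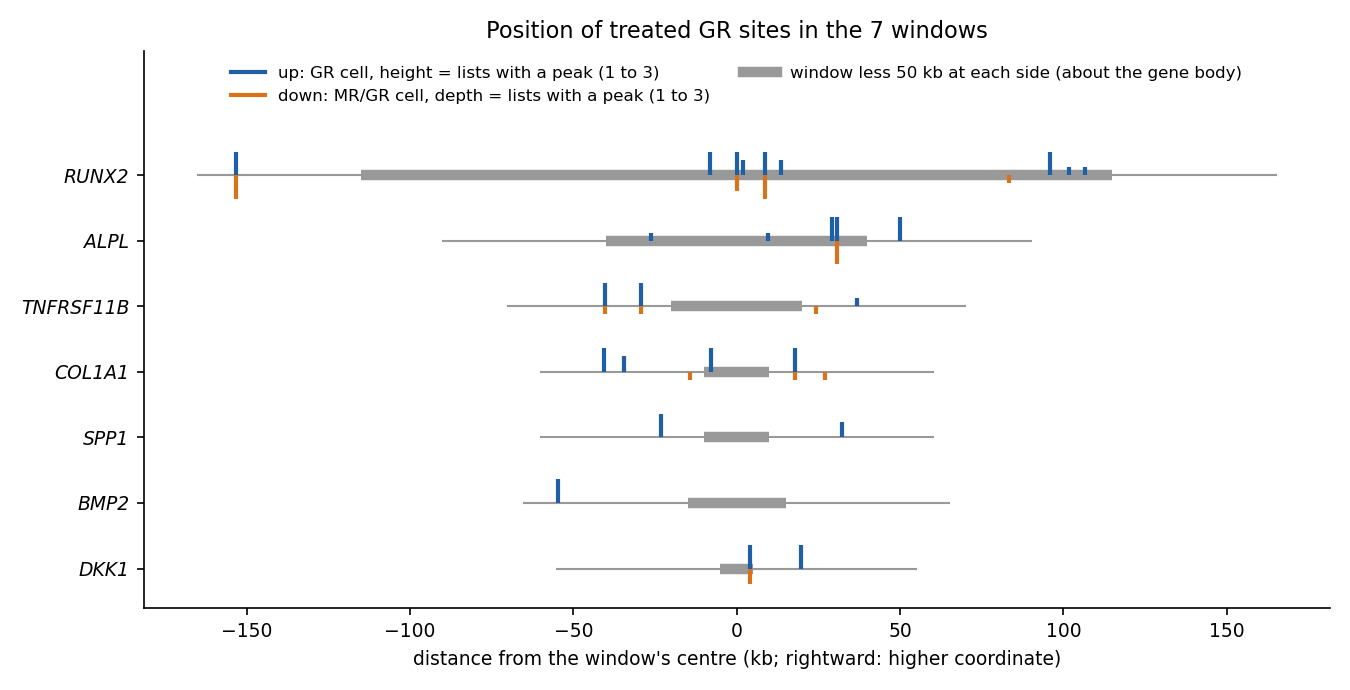
Position of each site as distance from the centre of its window in kb, with lines up for the number of GR-line lists and down for the number of MR/GR-line lists (1 to 3 each), and a thick bar for the window less 50 kb at each side. The RUNX2 sites 2 to 6 stand close together near the window's centre, and SPP1, BMP2 and TNFRSF11B have no site on the thick bar.

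At each of the 7 genes the MR/GR line had fewer peaks on average, a direction that turned at RUNX2, ALPL, TNFRSF11B and DKK1 when counts were scaled to list length. The lists did not overlap for 5 of the 7 genes. In 55.9% of 130 kb tiles with a treated peak every GR-line list likewise had more peaks than every MR/GR-line list. The count depended on the window. With 50 kb less at each side it was 3 of 7 (RUNX2, ALPL and COL1A1), DKK1 no longer separated (-0.33 on the log2 scale, exact permutation p = 1), and TNFRSF11B, SPP1 and BMP2 had no peak in either line. With 50 kb more at each side it was 7 of 7, including TNFRSF11B (-1.66) and COL1A1 (-1.89). The share of 55.9% is for 130 kb tiles, and none is given here for tiles of the inner or wide lengths. Since longer windows separate more easily, these 2 counts have no reference and are not read as a trait of the genes. The 7 tests are unadjusted, and none can fall under 0.1. For TNFRSF11B and COL1A1 the overlap came from MR/GR list 2. Without that list the MR/GR line had no peak at either gene.

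Summed over the 7 windows, GR-line lists held 22, 22 and 20 peaks (21.3 ± 1.15, SD, n = 3) and MR/GR-line lists 4, 11 and 5 (6.67 ± 3.79, SD, n = 3). The 64 peaks against 20 are 3.2-fold fewer in the MR/GR line, whereas whole lists were 4.55-fold shorter. Scaled to list length, the windows took 5.84, 7.12 and 7.64 of every 10000 peaks of the GR-line lists (6.87 ± 0.923). For the MR/GR-line lists the values were 10.8, 10.5 and 7.51 (9.60 ± 1.82). The shares of MR/GR list 3 and GR-line list 3 overlapped, and the Wilson 95% intervals of single lists were wide, from 4.19 to 27.7 per 10000 for MR/GR list 1. No test was made over the summed windows.

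The higher share of the MR/GR lists rested on RUNX2. It took 2.25 ± 0.366 of every 10000 peaks in GR-line lists against 5.15 ± 2.67 in MR/GR-line lists (SD, n = 3). Each MR/GR-line list held 3 RUNX2 peaks, so the share of RUNX2 varied among them with list length alone and was highest in the shortest. Without RUNX2 the other 6 windows took 4.62 and 4.45, and the direction turned. On this scale ALPL (1.15 ± 0.179 against 1.72 ± 0.888), TNFRSF11B (0.755 ± 0.220 against 0.956 ± 1.66) and DKK1 (0.647 ± 0.116 against 0.819 ± 0.760) had higher means in the MR/GR line. Their lists spread more widely than these differences. COL1A1 (1.21 ± 0.373 against 0.956 ± 1.66), SPP1 and BMP2 had lower means. Of the window peaks in MR/GR lists 1, 2 and 3, RUNX2 and ALPL supplied 100%, 36.4% and 80%, against 54.5%, 50% and 45% in the GR-line lists. MR/GR list 2 thus spread over more genes than lists 1 and 3, which had 4 and 5 window peaks in all.

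**Figure D4:**
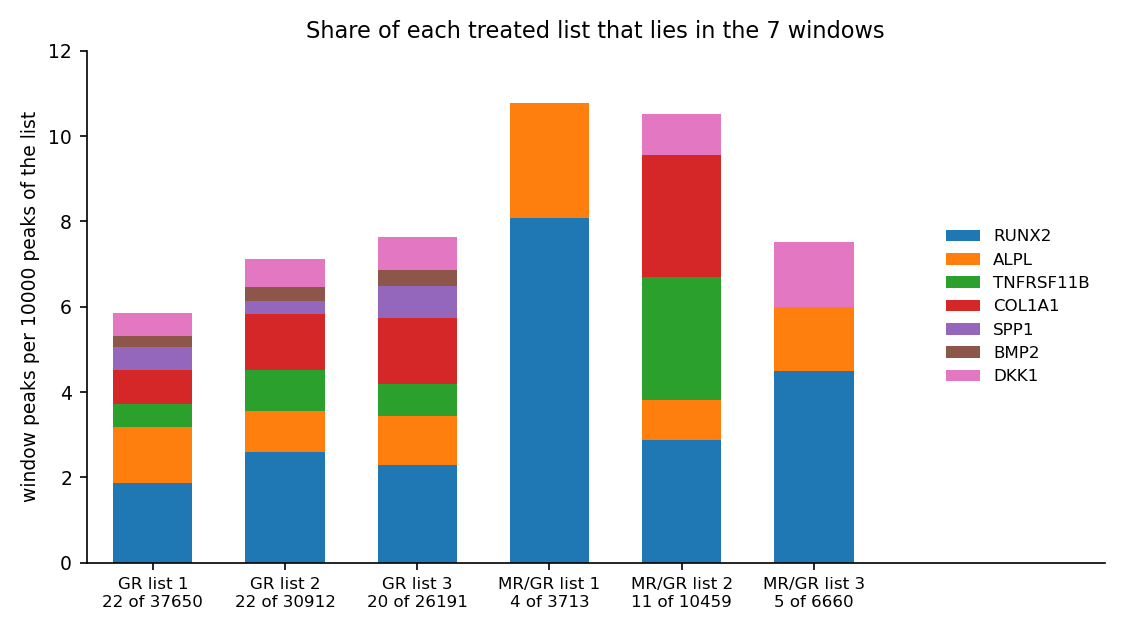
Window peaks per 10000 peaks of each dexamethasone list, stacked by gene, with the counts under each bar. The MR/GR bars reach 7.51 to 10.8 and the GR bars 5.84 to 7.64, and in MR/GR list 1 the bar is made of RUNX2 and ALPL alone.

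The GR line held 21 of the 30 sites and the MR/GR line 5, beside 69.5% and 13.6% of the 43713 treated sites in the genome. The 5 were RUNX2 sites 1, 3 and 5, ALPL site 4 and DKK1 site 1. All 5 were in all 3 GR-line lists, and 5 of 5 were thus held by the GR line, against 90.9% of MR/GR-line sites in the genome. Of the 21 sites of the GR line, 23.8% were held by the MR/GR line too (Wilson 95% interval 10.6 to 45.1), beside 17.9% of 30365 GR-line sites genome-wide. The interval contains the genome-wide share, so no difference was detectable with 21 sites. The intervals account for the counting of sites and for no other error.

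Among the 17 window sites in all 3 GR-line lists, 9 were in no MR/GR-line list, which is 52.9% (Wilson 95% interval 31.0 to 73.8) beside 65.6% in the genome. These 9 were RUNX2 sites 2 and 8, ALPL sites 3 and 5, COL1A1 sites 1 and 4, SPP1 site 1, BMP2 site 1 and DKK1 site 2. In all 6 lists were 3 of the 17, or 17.6% (6.19 to 41.0), beside 13.2% in the genome. The 4 sites in exactly 2 GR-line lists had no MR/GR-line peak, beside 90.3% of such sites in the genome. Both intervals contain the share found in the genome, so a difference was not detectable with 17 sites.

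The 4 window sites in a single MR/GR list and no GR-line list were all in list 2, the longest, beside 1716 of 1926 such sites in the genome. Of the 11 window sites in that list, 4 were in no other treated list (36.4%, Wilson 95% interval 15.2 to 64.6), beside 16.4% of its 10459 sites genome-wide. The interval contains the genome-wide share, so no difference was detectable with 11 sites. The 4 sites were RUNX2 site 7, TNFRSF11B site 3 and COL1A1 sites 3 and 6. In lists 1 and 3 every window peak was at a site of all 3 GR-line lists, 4 of 4 and 5 of 5, beside 89.7% and 84.7% in the genome. None of the 5 sites held by the MR/GR line lacked a GR-line peak, beside 5.6% of its sites in the genome that did.

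The windows were richer in sites than the genome average. The GR line held 18.6 sites per Mb of window and 10.3 per Mb of genome, and the MR/GR line 4.42 and 2.03. COL1A1 had the highest density in the GR line, 33.3 sites per Mb, followed by RUNX2 (21.2), DKK1 (18.2), ALPL and SPP1 (16.7 each), TNFRSF11B (14.3) and BMP2 (7.69). BMP2 alone lay under the genome average. Several of these values rest on 1 or 2 sites, and COL1A1 and RUNX2 rest on 4 and 7, so the order of the genes is not resolved.

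Set beside tiles of each window's own length, the counts were not extreme. At least as many GR-line sites as COL1A1's 4 were found in 7.65% of 120 kb tiles, and as many as RUNX2's 7 in 13.4% of 330 kb tiles. The corresponding shares were 28.8% for ALPL, 30.0% for DKK1, 33.1% for SPP1, 38.4% for TNFRSF11B and 63.0% for BMP2. Tiles include stretches with few genes, so they are a low reference for windows placed on genes. In the MR/GR line at least 3 sites, as at RUNX2, occurred in 6.99% of tiles of that length.

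**Figure D5:**
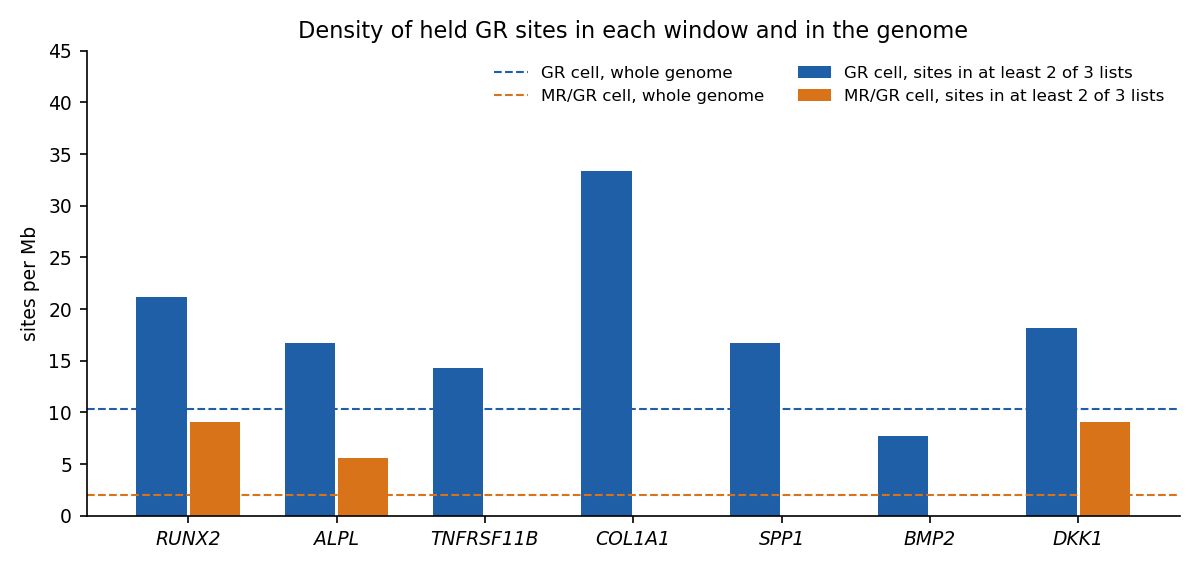
Sites held by at least 2 of 3 lists per Mb of each gene window, for the GR line and the MR/GR line, with dashed lines at the genome averages of 10.3 and 2.03. All genes but BMP2 exceed the GR-line line, and RUNX2, ALPL and DKK1 have MR/GR-line bars.

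RUNX2 and COL1A1 were both dense in the GR line and differed in the sites that the MR/GR line held. MR/GR list 2 had 3 peaks at each gene, whereas lists 1 and 3 had 3 each at RUNX2 and 0 at COL1A1. The MR/GR line held 3 of the 7 GR-line sites of RUNX2 (42.9%) and 0 of the 4 of COL1A1. Among 330 kb tiles with 7 GR-line sites, the median number of MR/GR-line sites was 1, and 21.5% had at least 3. Among 120 kb tiles with 4 GR-line sites, 43.1% had no MR/GR-line site. The difference between the genes was not tested.

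Sites were also counted by part of the window. The inner parts, about the gene bodies, made up 430 kb and held 10 GR-line sites, 23.3 per Mb, against 11 sites in 700 kb of flanks, 15.7 per Mb. The flanks differed between themselves, with 7 GR-line sites on the low-coordinate side and 4 on the high-coordinate side, in 350 kb each. The placement was not tested, and with so few sites an uneven placement is not shown. RUNX2 supplied 6 of the 10 inner sites and ALPL 2, while COL1A1 and DKK1 had 1 each. The MR/GR line held 4 inner sites and 1 flank site, RUNX2 site 1. Flank sites may lie at other genes. In RefSeq's GRCh38.p14 gene table, SUPT3H overlaps RUNX2, and the protein-coding genes within 50 kb of the others are NBPF3 and RAP1GAP (ALPL), PPP1R9B and SGCA (COL1A1), PKD2 (SPP1), PRKG1 (DKK1) and COLEC10 (TNFRSF11B), with none for BMP2.

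Distances between window sites and their neighbours varied widely. The median distance from a GR-line site in a window to the nearest treated site was 8.40 kb (range 1.69 to 97.2), beside 14.2 kb for all GR-line sites. The group of RUNX2 sites 2 to 6 supplied 5 of these 21 distances, and the windows were also denser in sites, so the shorter median is not a separate result. The closest neighbours were ALPL sites 3 and 4 at 1.69 kb and RUNX2 sites 3 and 4 at 1.84 kb. At the 3 sites of all 6 lists, peak centres spanned 65 bp at RUNX2 site 1, 110 bp at RUNX2 site 5 and 70 bp at ALPL site 4. The median span of such sites in the genome was 69 bp. The widest span among the GR-line sites was 162 bp, at COL1A1 site 4.

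Sequence under the sites was not analysed here, since a genome of the hg19 build was not used. RefSeq start-site sequences of 300 bases (GRCh38.p14) matched 4 of the 7 genes, RUNX2, ALPL, SPP1 and DKK1, with 7 entries. None of the 7 entries contained AGAACA or its reverse complement TGTTCT, the repeat unit of the glucocorticoid response element, while 14.8% of 35116 such entries did. This says only that these letters are not in those windows, and no peak was placed relative to them because the builds differ.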

How the data were processed

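Per the labels, GR was mapped by ChIP-seq in both lines, with 4 immunoprecipitation samples and 2 input samples. No list of an input was used here. The input of the GR line is annotated as dexamethasone treated and that of the MR/GR line as without dexamethasone. Treatment of the input thus differed between the lines. Which input served each list is not given in the labels, and an effect on the comparison of the lines was not tested. For each immunoprecipitation the authors deposited 3 lists with chromosome, start and end of each peak and no score. Per the submitters' processing notes, the tools were HOMER 4.8.3, Picard 1.115, SAMtools 1.3.1, Bowtie and Trim Galore 0.4 with the hg19 build. Their roles and the calling threshold are not given in the sources used here. Peaks have 1 width per list (280 to 424 bp, shorter in the treated MR/GR lists), so overlap is easier in some lists.

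Peaks were assigned by centre and merged with at least 1 bp overlap. The result was identical to bedtools 2.31.1 for 43713 sites. In a check on 19727 artificial sites, 100% received the right lists. Differences are of log2(peaks + 1), with exact two-sided permutation tests over lists for the comparison of the lines. Tiles ran from the first to the last treated site of 23 chromosomes. Python 3.11.15, numpy 2.4.6, pandas 2.3.3 and SciPy 1.17.1 were used.

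The members and lists were chosen with earlier results of these data known. Sites to name were at most 5 per gene, by number of treated lists, then of GR-line lists, then position, with sites of the MR/GR line alone and vehicle sites. Others were named after their calls were seen. Alternatives covered window size, overlap, lists per site, pseudocount, list numbers as blocks, and fits without each list. The planned list of other osteoblast genes and motifs under peaks were not analysed here, for want of hg19 annotation.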

Additional observations from a re-analysis of the deposited data

How the results depend on the processing

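Of 350 alternatives, 330 kept the direction and the side of 0.05, or moved less than the spread. Many of these could not change a result, since every vehicle count was 0 and leaving out a vehicle list altered nothing. Differences that fell to 0 with inner windows are also among the 330. The 330 are therefore no measure of robustness. Tests of 3 lists against 3 cannot pass 0.05, so their stability is read from direction and size, not from p. Scaling each gene to list length, chosen after seeing the data, turned 4 of the 7 differences between the lines, to 2.90 (RUNX2), 0.57 (ALPL), 0.20 (TNFRSF11B) and 0.17 (DKK1) peaks per 10000. No other alternative reversed a per-gene direction. Inner windows held no peak of either line at TNFRSF11B, SPP1 and BMP2, whose differences there were 0. The summed difference between the lines (-1.65 on the log2 scale) ranged from -2.03 to -1.39 with 1 list left out. With list numbers as a replicate block it stayed -1.65. Over 1 Mb bins, deviations of equally numbered lists correlated at 0.0149, -0.0458 and 0.0404, so the numbers were not taken to pair them. The smallest p that the permutation test can give with the block is 0.25, so the block could not change a call. The share difference of 2.73 window peaks per 10000 became -0.17 without RUNX2 and was 2.15 to 3.78 with 1 list left out. The summed response to dexamethasone in the GR line (4.48, log2) was 3.54 with inner windows, 5.07 with wide ones, 5.45 with a pseudocount of 0.5 and 4.46 to 4.52 with 1 list left out. In the MR/GR line (2.83) it was 2.21 with inner windows, 3.72 with that pseudocount and 2.45 to 3.08 with 1 list left out. With every vehicle count at 0, the size of both values depends on the pseudocount and is not a measured fold change. The 21 GR-line sites were 10 with inner and 33 with wide windows, and 18 to 21 with 1 list left out. The 5 MR/GR-line sites were 12 with 1 list required and 3 with all 3 required, and the 5 sites of both lines 8 and 3. With 1 list left out both counts were 3 to 5, the 3 being without MR/GR list 3, when lists 1 and 2 were both required. The share of GR-line sites held by the MR/GR line was then 14.3% to 27.8%. With centres at most 100 bp apart, COL1A1 sites 1 and 4 split, and their largest parts were in 2 GR-line lists. RUNX2 site 6, whose 2 peak centres lay 117 bp apart, split as well and was no longer held. The GR-line sites were then 20, and the group of RUNX2 sites 2 to 6 lost a member.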
